A study of Mus musculus with 3 samples.

Results

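Glutamate and GABA that leave a neuron are taken up by neighbouring glia and turned into products that can be handed back or burned. In the dorsal root ganglion (DRG) this task falls to satellite glial cells (SGCs), the flat glia that wrap each sensory neuron soma. Here 9 genes that stand for the steps of this clearance were followed in single nuclei of the mouse DRG. They were taken by symbol from the 32227 genes counted, and all 9 were present. They are 3 glutamate carriers (*Slc1a1*, *Slc1a2* and *Slc1a3*), the enzyme glutamine synthetase (*Glul*), a GABA transporter (*Slc6a11*), a pair of glutamine transporters (*Slc38a1* and *Slc38a3*) and a pair of mitochondrial enzymes, *Maob* and *Abat*. The members were described over 10 cell classes and 3 libraries of nuclei. Another 25 genes of glutamate, glutamine and GABA handling were counted as the pathway around them.

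The nuclei came from L3-L5 DRG of C57BL/6 mice labelled male, which carried no engineered allele and received no treatment according to the labels. One library was made from adult mice (3 months) and 2 libraries were made from aged mice (21 months), with PIP-seq, a method that tags each captured transcript with a unique molecular identifier (UMI). A text on the series as a whole gives another age for the aged mice, and the sample labels were followed. The methods of the study give aged mice as female and adult mice as both sexes. The data went against the male label in all 3 libraries. *Xist*, the RNA of the inactive X chromosome of females, held 1412, 849 and 932 counts per 1000000 UMIs (CPM), in the order adult, aged 1 and aged 2, with 642 CPM or more in each of 9 classes, and 4 Y-linked genes together held 23.9, 14.3 and 8.88 CPM. The sexes behind each library are therefore not known, and a part of sex in the age differences was not tested. How many mice went into a library is not given in the sources used here. P-values between libraries rest on these libraries alone, with the variance of a gene estimated partly from other genes.

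The carriers work in sequence with the enzymes. *Slc1a3* (GLAST) and *Slc1a2* (GLT-1) are the carriers of astrocytes and draw glutamate into the cell with sodium, whereas *Slc1a1* (EAAC1) is mainly a neuronal carrier. *Glul* joins glutamate with ammonia to make glutamine, and *Slc38a3* (SNAT3) lets glutamine out of astrocytes while *Slc38a1* (SNAT1) takes it up into neurons. *Slc6a11* (GAT-3) is the astrocytic GABA transporter and *Abat* encodes GABA transaminase, which starts the breakdown of GABA. *Maob* encodes monoamine oxidase B, which degrades amines and in astrocytes takes part in making GABA from putrescine.

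The libraries held 167664164 UMIs (adult), 95647106 UMIs (aged replicate 1) and 69045987 UMIs (aged replicate 2), and 11518, 5130 and 2611 barcodes passed the minimum of over 1000 genes. Libraries shared at most 1 kept barcode. Nuclei were clustered without the members and without the pathway genes, and clusters were named from marker genes. SGC-like nuclei numbered 3558, 540 and 263, in the order adult, aged 1 and aged 2. Non-myelinating Schwann cell (NMSC)-like nuclei numbered 443, 272 and 133, and myelinating Schwann cell (MSC)-like nuclei 655, 587 and 201. All 6 SGC markers were detected in the SGC-like class of each library, with a summed level of 2511 to 2807 CPM against 1052 to 1512 in NMSC-like and 553 to 757 in MSC-like nuclei. The adult library stood apart in a technical measure, since *Malat1*, a long RNA retained in the nucleus, held 8.73% of UMIs in adult SGC-like nuclei against 2.09% and 2.24% in the aged ones. With 1 adult library, age and library cannot be told apart.

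Levels are given in CPM, relative to all UMIs of a class in a library, each class and library being the sum of its nuclei. In sums of nuclei, fewer copies per cell and fewer cells that carry the transcript cannot be told apart. Differences between classes were tested on the UMI sums with the quasi-likelihood test of edgeR over all genes, with the library as a block, and a log2 fold change is that of a class over the mean of the other 8 classes. A gene was called at a Benjamini-Hochberg adjusted p under 0.05. *Slc38a3* held too few UMIs to be tested between classes, so that 8 of the 9 members were tested.

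Of the 8 members tested, 6 were called higher in SGC-like nuclei and 1 lower, where 19.8% of all 14380 genes tested were called higher and 13.2% lower. The median log2 fold change of the members was 1.84, against 0.03 for all genes. The plot of levels by class shows every member in each library.

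The other classes had fewer members on the high side. The higher calls in endothelial-like and neuron-like nuclei include *Slc1a1*, which passed a filter on low counts through those classes alone. Fibroblast-like nuclei had 4 higher and none lower (all genes 18.9% higher and 10.4% lower), endothelial-like nuclei 3 higher and 1 lower (13.5% and 5.45%) and NMSC-like nuclei 2 higher and 2 lower (14.7% and 6.94%). Neuron-like nuclei had 1 higher and 3 lower (32.6% and 26.2%), myeloid-like nuclei 1 higher and 4 lower (23.5% and 15.8%) and B lymphocyte-like nuclei 1 higher and 1 lower (10.9% and 9.81%). In MSC-like nuclei 1 member was lower and none higher (12.6% and 18.5%), and in erythroid-like nuclei none was called (12.1% of all genes higher and 10.3% lower), with none at an unadjusted p under 0.05.

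**Figure D1:**
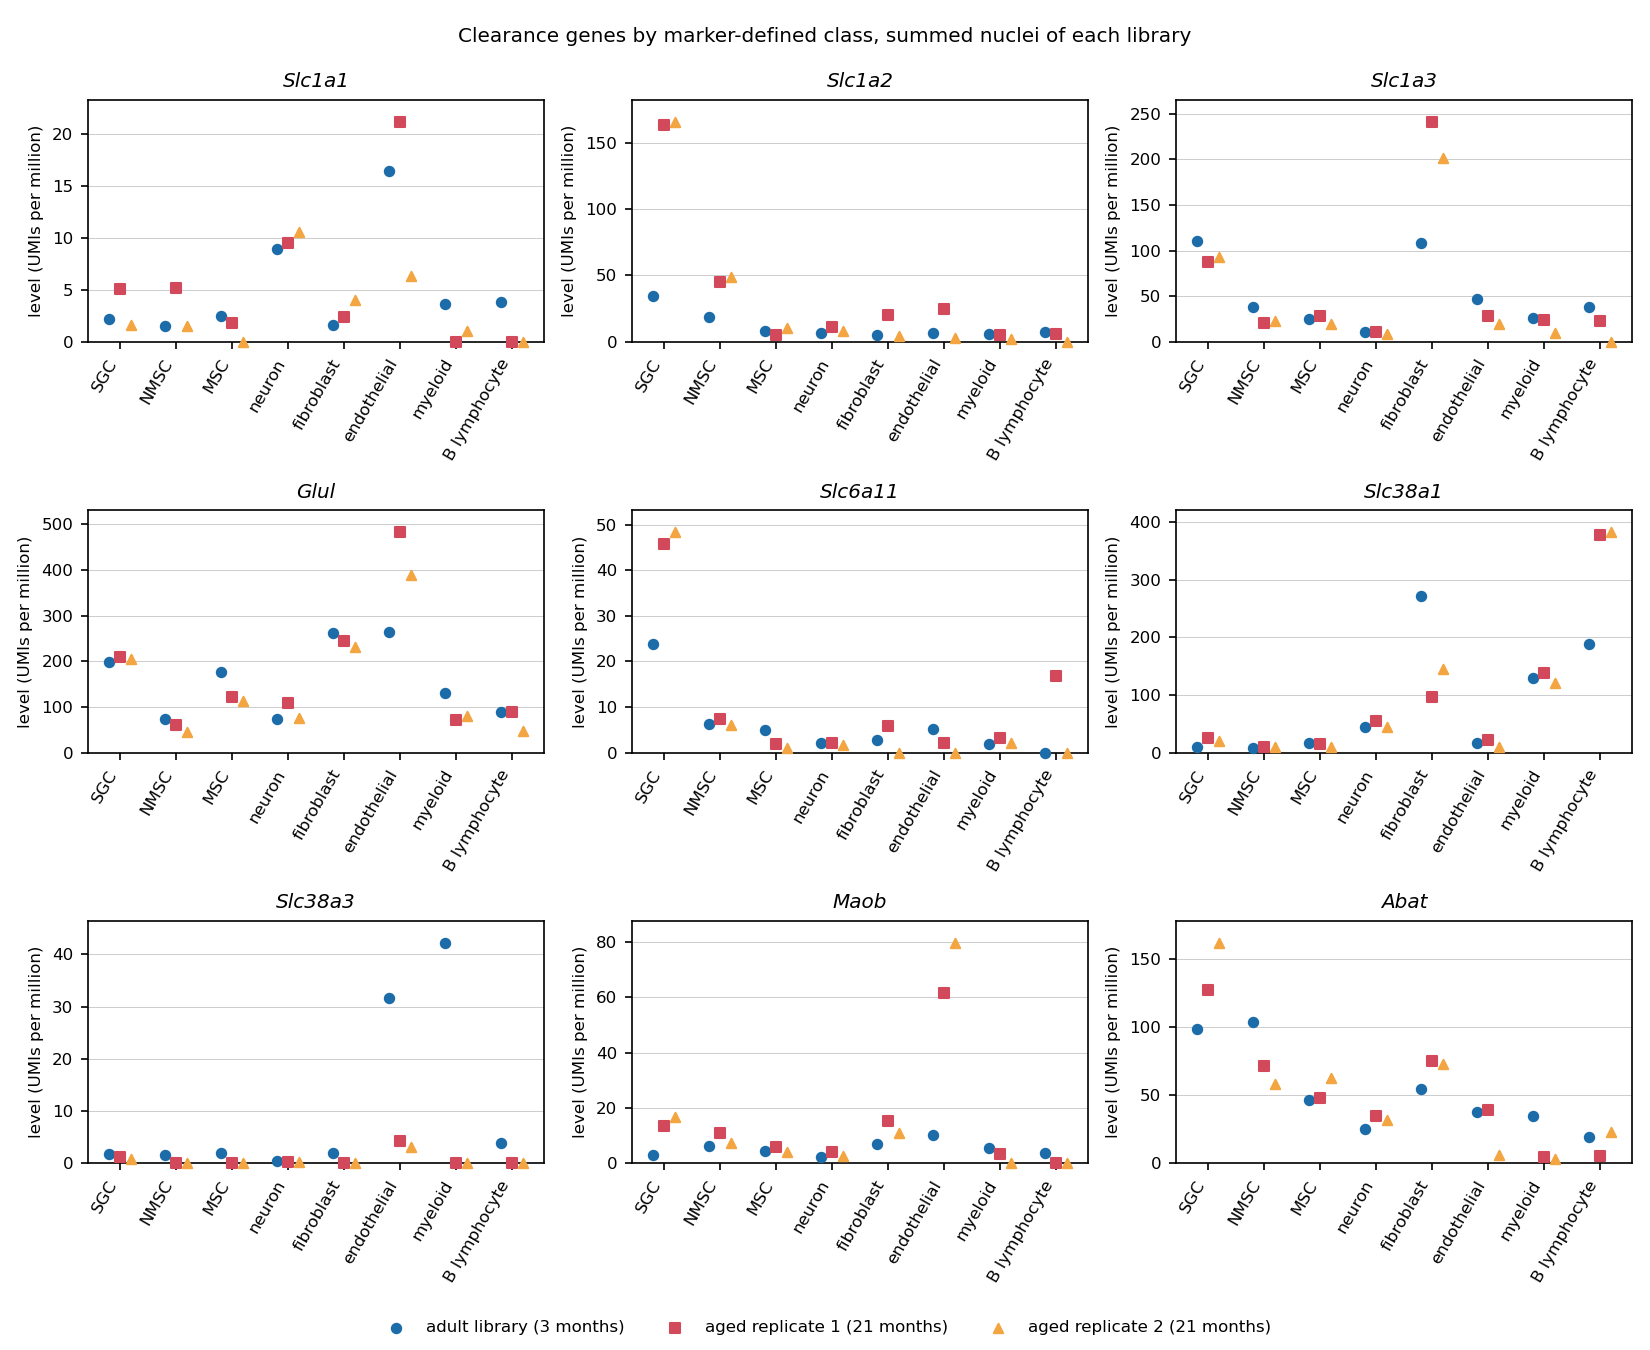
Levels of the 9 members (vertical axis, CPM, linear) in 8 marker-defined classes (horizontal axis); each point is the summed nuclei of 1 library, blue circles adult, red squares aged replicate 1, orange triangles aged replicate 2. *Slc1a2* and *Slc6a11* stand highest in the SGC-like class, with both aged libraries above the adult one, whereas *Slc38a1* stands highest in B lymphocyte-like and fibroblast-like nuclei and *Maob* in aged endothelial-like nuclei.

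Among the glutamate carriers, *Slc1a2* separated SGC-like nuclei most clearly from the other classes. Its level in SGC-like nuclei was 34.7 CPM in the adult library, 163 CPM in aged replicate 1 and 166 CPM in aged replicate 2. The next class was NMSC-like, with 18.5, 45.1 and 49.1 CPM in the same order. Each SGC-like value lay above the NMSC-like value of its own library, but the adult SGC-like value lay below both aged NMSC-like values. In the remaining classes *Slc1a2* held between 0 and 34.1 CPM, the upper end in erythroid-like nuclei with 3 and 4 UMIs. The log2 fold change of the SGC-like class was 3.51 ± 0.26 (SE, n = 3 libraries, edgeR adjusted p = 2.25e-11), and that of the NMSC-like class 1.67 ± 0.37 (adjusted p = 0.00136). In free RNA, taken from barcodes of 10 to 100 UMIs, *Slc1a2* held 10.5, 15.1 and 9.79 CPM, below all SGC-like values.

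*Slc1a3* was shared between SGC-like and fibroblast-like nuclei. It held 111, 87.3 and 93.4 CPM in SGC-like nuclei, in the order adult, aged 1 and aged 2. In fibroblast-like nuclei it held 108, 242 and 202 CPM. The adult library thus had close values in these classes, and in both aged libraries the fibroblast-like level lay above every SGC-like level. The log2 fold change was 1.89 ± 0.21 (adjusted p = 6.02e-08) for SGC-like and 2.74 ± 0.21 (adjusted p = 4.43e-11) for fibroblast-like nuclei. Neuron-like nuclei were lowest among the classes with more than 50 nuclei a library, at 8.7 to 10.6 CPM, with a log2 fold change of -1.76 ± 0.27 (adjusted p = 2.81e-06).

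*Slc1a1* gave few UMIs in glia. It held 8.99, 9.48 and 10.6 CPM in neuron-like nuclei, with 609, 393 and 322 UMIs, and the 3 values lay close together. In SGC-like nuclei it held 2.16, 5.11 and 1.62 CPM from 26, 25 and 4 UMIs, within the range of free RNA (3.69 to 8.3 CPM) or below it. Endothelial-like nuclei spread from 6.37 to 21.2 CPM on 2 to 20 UMIs a library. A filter on low counts preceded these tests, and *Slc1a1* passed it through endothelial-like and neuron-like sums alone, where it was high. The filter thus favoured these directions, and the calls are no support for them. The fitted differences for *Slc1a1* (log2 2.93 ± 0.45 in neuron-like and 3.42 ± 0.60 in endothelial-like nuclei, adjusted p = 4.75e-06 and 0.000102) include classes without a UMI, and they are no bounds. With only the classes of at least 50 nuclei a library, these were 1.87 ± 0.30 (adjusted p = 1.68e-05) and 2.49 ± 0.45 (adjusted p = 0.00029), and the SGC-like value went from 0.90 ± 0.98 (adjusted p = 0.553) to -0.16 ± 0.41 (adjusted p = 0.817).

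*Glul*, the glutamine-forming enzyme, was counted in every class. SGC-like nuclei held 198, 209 and 205 CPM, a narrow range. Endothelial-like nuclei held 265, 482 and 388 CPM and fibroblast-like nuclei 261, 244 and 230 CPM, so that both classes lay above the SGC-like class in each library. NMSC-like nuclei had the lowest mean of the 9 classes tested, at 72.5, 60.6 and 44.7 CPM. The log2 fold change of the SGC-like class was 0.90 ± 0.15 (adjusted p = 3.65e-05), that of the endothelial-like class 1.71 ± 0.16 (adjusted p = 1.38e-09) and that of the NMSC-like class -1.14 ± 0.20 (adjusted p = 8.82e-05). Free RNA held 164 to 190 CPM of *Glul*, close to the SGC-like level. Neuron-like, NMSC-like, myeloid-like, B lymphocyte-like and erythroid-like nuclei all lay below free RNA, so that expression of *Glul* in them is not shown. With free RNA at 10% of each sum subtracted, the SGC-like excess over NMSC-like nuclei was a log2 of 2.21 (adjusted p = 0.000456). Taking a like amount from both classes widens their ratio, so this value is no check on free RNA.

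For GABA, *Slc6a11* was led by the SGC-like class in each library, and *Abat* in the aged libraries only. *Slc6a11* held 23.9, 45.8 and 48.3 CPM in SGC-like nuclei and at most 7.39 CPM in NMSC-like, MSC-like or neuron-like nuclei. All SGC-like values of *Slc6a11* lay above those of every other class. The nearest were an erythroid-like value of 16.9 CPM that rests on 2 UMIs and a B lymphocyte-like value of 16.7 CPM that rests on 3. Its log2 fold change was 3.45 ± 0.27 (adjusted p = 7.26e-11). *Abat* held 99.1, 128 and 162 CPM in SGC-like nuclei and 104, 71.7 and 58.1 CPM in NMSC-like nuclei. The NMSC-like value was thus the higher in the adult library and the SGC-like value in the aged ones. *Abat* differed by a log2 of 2.14 ± 0.23 (adjusted p = 2.77e-08) for SGC-like and 1.32 ± 0.28 (adjusted p = 0.000828) for NMSC-like nuclei.

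The glutamine transporters lay elsewhere. *Slc38a1* held 9.12, 25.3 and 20.7 CPM in SGC-like nuclei, below the 37.1 to 48.4 CPM of free RNA, and its SGC-like difference was negative (log2 -1.38 ± 0.27, adjusted p = 0.000215). It was higher in B lymphocyte-like nuclei (188, 378 and 383 CPM, log2 2.89 ± 0.28, adjusted p = 5.28e-09) and in fibroblast-like nuclei (272, 96.2 and 144 CPM, log2 2.18 ± 0.21, adjusted p = 3.28e-09). Myeloid-like nuclei were also higher, at 120 to 139 CPM (log2 1.70 ± 0.24, adjusted p = 1.2e-06). Neuron-like nuclei held 45.1, 54.2 and 45.1 CPM, within or just above the free RNA range. *Slc38a3*, the glutamine exporter of astrocytes, was sparse in glia. It gave 22, 6 and 2 UMIs in SGC-like nuclei (1.82, 1.23 and 0.81 CPM), and its highest levels were those of adult myeloid-like (42.2 CPM, 23 UMIs) and adult endothelial-like nuclei (31.7 CPM, 25 UMIs).

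*Maob* had its highest level in endothelial-like nuclei. They held 10.1, 61.6 and 79.6 CPM from 8, 58 and 25 UMIs, and SGC-like nuclei 3.15, 13.3 and 16.6 CPM. In both classes the adult value lay below both aged values. The endothelial-like log2 fold change was 4.08 ± 0.51 (adjusted p = 6.05e-07) and the SGC-like one 1.79 ± 0.68 (adjusted p = 0.0441). Over classes of at least 50 nuclei the endothelial-like value was 2.87 ± 0.38 (adjusted p = 6.64e-06), while the SGC-like value fell to 0.47 ± 0.35 and was not called (adjusted p = 0.329).

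To compare the glia among themselves, SGC-like sums were set against NMSC-like and MSC-like sums of the same libraries. Of 7 members tested, 4 were higher in SGC-like than in NMSC-like nuclei and none was lower, where 6.38% of all genes were called higher and 6.11% lower. Against MSC-like nuclei 5 of 7 were higher and none was lower, where 16.5% of all genes were called higher and 17% lower. The median log2 fold change of the members was 1.57 over NMSC-like and 1.36 over MSC-like nuclei, beside -0.01 for all genes in both comparisons. *Slc1a1* and *Slc38a3* had too few UMIs in Schwann cells to be tested.

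*Slc6a11* had the highest difference over NMSC-like nuclei. It was 2.51 ± 0.38 (log2) higher in SGC-like than in NMSC-like nuclei (adjusted p = 0.000717) and 3.76 ± 0.39 higher than in MSC-like nuclei (adjusted p = 6.5e-06). *Slc1a3* was higher by a like amount over both Schwann cell classes, 1.86 ± 0.21 (adjusted p = 8.47e-05) and 2.03 ± 0.20 (adjusted p = 2.94e-06). *Slc1a2* stood 1.57 ± 0.30 above NMSC-like (adjusted p = 0.00325) and 3.84 ± 0.35 above MSC-like nuclei (adjusted p = 1.96e-06). Without aged replicate 1 the first of these was 1.40 and was no longer called (adjusted p = 0.0625; over all alternatives its adjusted p ran from 2.17e-15 to 0.0625).

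The enzymes *Glul* and *Abat* were called against one or both Schwann cell classes. *Glul* was 1.80 ± 0.17 higher in SGC-like than in NMSC-like nuclei (adjusted p = 2.52e-05) but only 0.66 ± 0.15 higher than in MSC-like nuclei (adjusted p = 0.00341). Without aged replicate 1 or aged replicate 2 the second value lost its call (adjusted p = 0.0851 and 0.0591). Over all alternatives it ran from 0.34 to 0.87, with an adjusted p of up to 0.194. *Abat* was 1.36 ± 0.22 higher than in MSC-like nuclei (adjusted p = 0.000279), and its difference from NMSC-like nuclei was 0.68 ± 0.22 (adjusted p = 0.0651). That difference was called with DESeq2 (adjusted p = 0.0149), without the low-count filter (8.18e-05), with the marker gate (0.00996), with the members kept in clustering (0.000818), in the SGC-like cluster with fewer neuron markers (0.00937) and without the adult library (1.1, adjusted p = 1.35e-06). *Maob* and *Slc38a1* were not called against either class, with log2 differences of 0.17 ± 0.44 and 0.99 ± 0.39 over NMSC-like and 0.93 ± 0.43 and 0.34 ± 0.33 over MSC-like nuclei. *Maob* was called over MSC-like nuclei with more than 2000 genes (adjusted p = 0.0299), without the low-count filter (0.0368) and without the adult library (0.00246). *Slc38a1* was called over NMSC-like nuclei without the filter (0.00972), in the SGC-like cluster with more neuron markers (0.0204) and without the adult library (0.00272), and without that library also over MSC-like nuclei (0.00515).

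**Figure D2:**
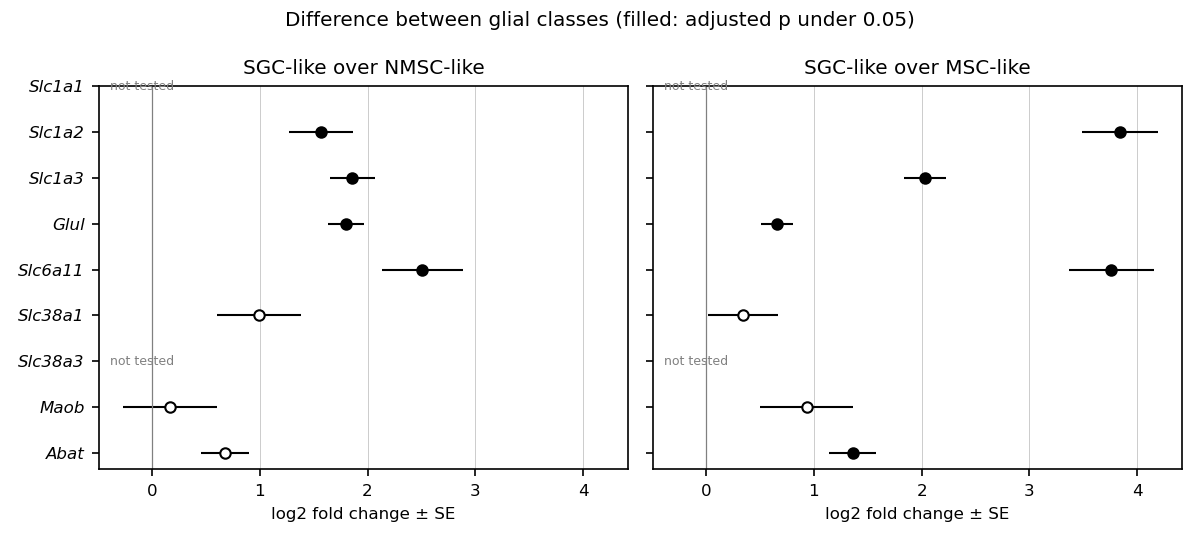
Log2 fold change of each member in SGC-like over NMSC-like nuclei (left) and over MSC-like nuclei (right) on a common horizontal axis; bars are standard errors of the edgeR fit over 3 libraries, and filled points had an adjusted p under 0.05. *Slc6a11*, *Slc1a2*, *Slc1a3* and *Glul* lie to the right of 0 in both panels, *Abat* is called over MSC-like nuclei, and *Slc1a1* and *Slc38a3* were not tested.

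Other genes of the pathway differed between glia in both directions. Of 25 listed, 15 were tested between glia. In SGC-like over NMSC-like nuclei 4 were higher and none lower, where 6.38% of all genes were called higher and 6.11% lower. Over MSC-like nuclei 3 were higher and 4 lower, where 16.5% of all genes were called higher and 17% lower. *Slc1a4*, a carrier of alanine, serine and cysteine, was higher over both (log2 2.22 ± 0.25 and 2.77 ± 0.24), as were the glutamine carrier *Slc1a5* (0.79 ± 0.15 and 1.40 ± 0.15) and *Aldh9a1*, an aldehyde dehydrogenase that can form GABA (1.23 ± 0.24 and 0.61 ± 0.21). Among those lower than in MSC-like nuclei were *Slc3a2*, the heavy chain of amino acid exchangers (-0.80 ± 0.15), and the glutamine transporter *Slc38a2* (-0.44 ± 0.12).

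The next question was whether the members differed between adult and aged ganglia within a class. With 1 adult and 2 aged libraries, a class had 1 residual degree of freedom, and the test took the spread of the single adult library to be that of the aged ones. The p-values rest largely on variance shared across genes, so a small one does not measure the spread of that gene between libraries. A gene passed the low-count filter if it reached the minimum in any library. In SGC-like nuclei 8 members were tested; 4 rose and 1 fell with age, where 8.62% of all genes rose and 8.47% fell. Their median log2 fold change was 0.69, against -0.003 for all genes. The calls depended on settings. Without the filter on low counts, or with nuclei of more than 2000 genes, edgeR called none of 25789 and none of 15108 genes in SGC-like nuclei, with 3415 and 2263 genes at an unadjusted p under 0.05, and DESeq2 called 860 genes on the filtered table. The plot of age differences by class shows the values of the filtered table.

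**Figure D3:**
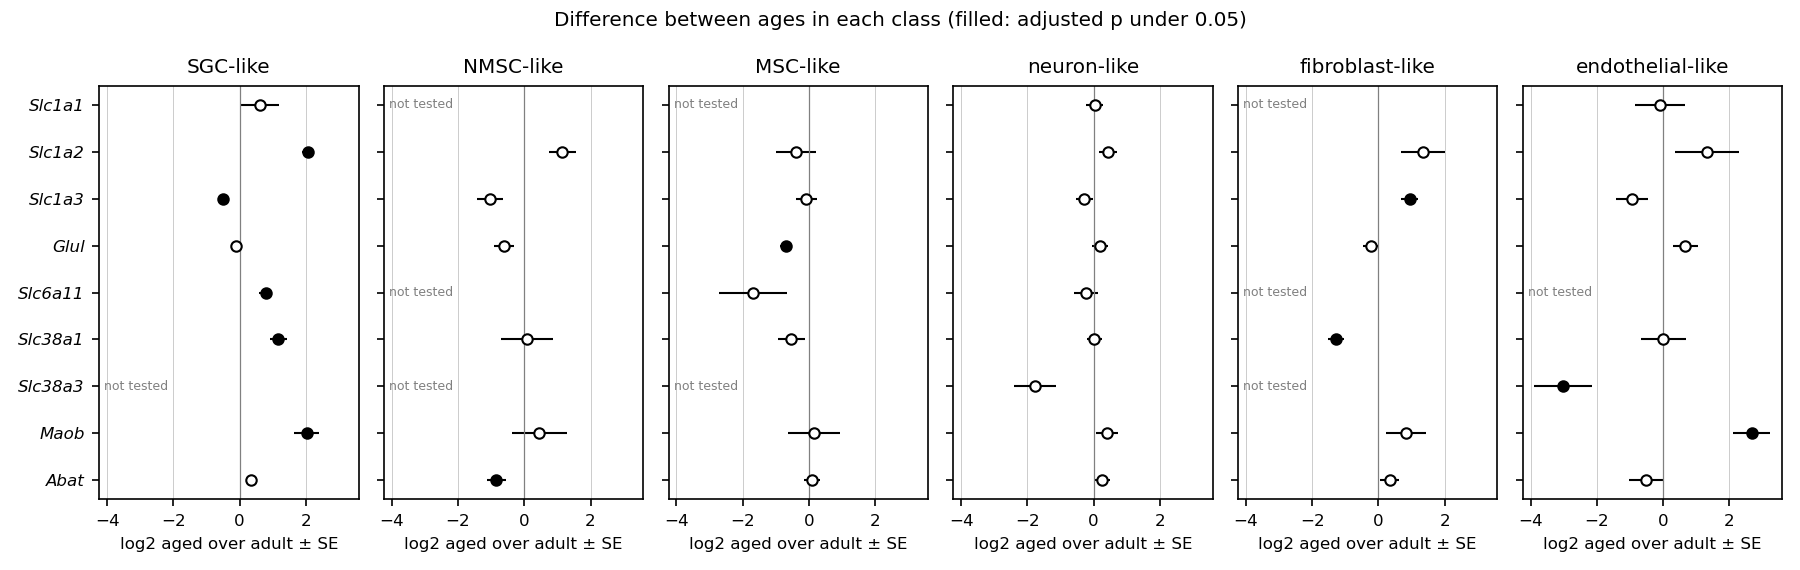
Log2 fold change of aged over adult for each member in 6 classes on a common horizontal axis; bars are standard errors of the edgeR fit (1 adult and 2 aged libraries) and filled points had an adjusted p under 0.05. In SGC-like nuclei *Slc1a2*, *Maob*, *Slc38a1* and *Slc6a11* lie to the right and *Slc1a3* to the left of 0, whereas all neuron-like points are open.

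*Slc1a2* and *Maob* had age differences of about the same size in SGC-like nuclei, and *Slc1a2* the more UMIs. From 34.7 CPM (418 UMIs) in the adult library it stood at 165 ± 2.1 CPM (mean ± SD, n = 2) in the aged libraries, a log2 rise of 2.06 ± 0.17 (adjusted p = 1.12e-17). The aged libraries lay close together and far from the adult value. With no low-count filter the rise was 2.05 (unadjusted p = 0.000783, adjusted p = 0.367), and with more than 2000 genes 1.82 (unadjusted p = 0.00043, adjusted p = 0.245). DESeq2 gave 2.07 (adjusted p = 3.89e-24).

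The share of nuclei with a *Slc1a2* UMI was also compared at equal depth. Aged SGC-like nuclei were deeper, with medians of 7155 and 7797 UMIs against 3105 in the adult library, so each nucleus was thinned to 1000 UMIs. A *Slc1a2* UMI was then found in 2.64% of adult SGC-like nuclei (exact 95% interval 2.14 to 3.22%, n = 3558). In aged replicate 1 it was found in 14.3% (11.4 to 17.5%, n = 540) and in aged replicate 2 in 14.4% (10.4 to 19.3%, n = 263). Before thinning the shares were 8.38%, 54.8% and 54.8%. In thinned B lymphocyte-like nuclei, a class taken to lack this carrier, no UMI was found in 108, 56 and 27 nuclei (before thinning in 2, 1 and 0 of them). At a floor of 3 nuclei this allows shares of up to 2.78%, 5.36% and 11.1%. In the adult library this limit lies above the SGC-like share (2.64%), and in aged replicate 2 it bounds little. Intervals and limits cover counting error only.

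**Figure D4:**
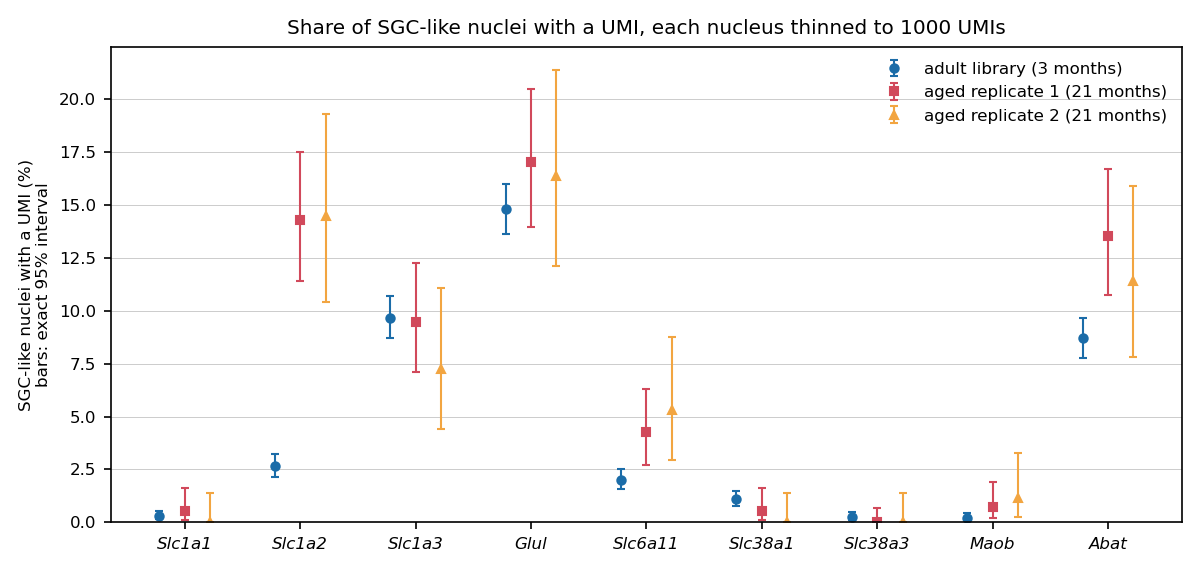
Percent of SGC-like nuclei with at least 1 UMI of each member after every nucleus was thinned to 1000 UMIs, for the adult library (blue circles), aged replicate 1 (red squares) and aged replicate 2 (orange triangles); bars are exact 95% intervals for counting error. For *Slc1a2* both aged intervals (from 10.4%) lie above the adult one (up to 3.22%), whereas for *Glul* and *Slc1a3* the 3 intervals overlap.

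The GABA transporter *Slc6a11* rose as well. It went from 23.9 CPM in the adult library to 45.8 and 48.3 CPM in the aged ones, a log2 rise of 0.79 ± 0.20 (adjusted p = 0.00252). Thinned shares were 2.00% (1.56 to 2.51%), 4.26% (2.72 to 6.32%) and 5.32% (2.94 to 8.77%). Both aged intervals lay above the adult one. DESeq2 did not call the rise (0.80, adjusted p = 0.0721; over the alternatives with a test the adjusted p ran from 4.92e-07 to 0.367).

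*Slc1a3* went the other way. It held 111 CPM in the adult library and 87.3 and 93.4 CPM in the aged ones, a log2 change of -0.49 ± 0.15 (adjusted p = 0.0186). The direction was the same in all alternatives, but DESeq2 (adjusted p = 0.146) and 6 other settings did not call it (adjusted p over the alternatives with a test from 0.00544 to 0.998). Thinned shares were 9.67%, 9.44% and 7.22%, with overlapping intervals. *Glul* was not called, at -0.12 ± 0.15 (adjusted p = 0.632), with 198 CPM in the adult library and 207 ± 3.3 CPM (SD, n = 2) in the aged libraries; CPM and the fit, which scales libraries by TMM, differ in sign here. *Abat* was not called at 0.35 ± 0.16 (adjusted p = 0.118).

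*Maob* rose from 3.15 CPM (38 UMIs) to 13.3 and 16.6 CPM (65 and 41 UMIs), a log2 rise of 2.03 ± 0.37 (adjusted p = 2.04e-05). Before thinning 1.01%, 8.15% and 10.6% of these nuclei had a *Maob* UMI. After thinning the shares were 0.22%, 0.74% and 1.14%, and their intervals overlapped, so that the difference was not detectable at that depth. *Slc38a1* rose from 9.12 CPM to 25.3 and 20.7 CPM (log2 1.17 ± 0.27, adjusted p = 0.000625). DESeq2 (adjusted p = 0.068) and the marker gate (0.74, adjusted p = 0.293) did not call it, and the gate did not call *Maob* either (1.53, adjusted p = 0.173). After subtraction of free RNA the rise of *Slc38a1* was larger (1.88 ± 0.355). A like amount taken from a lower adult level widens the ratio, so this value is no check on free RNA. Before thinning 2.64%, 10% and 11% of nuclei had a *Slc38a1* UMI. After thinning 39, 3 and 0 nuclei had one, at shares of 1.1% (0.781 to 1.5%), 0.56% (0.115 to 1.61%) and 0 of 263 nuclei (a floor of 3 nuclei allows up to 1.14%), so that the rise was not seen at equal depth. *Slc38a3* (22, 6 and 2 UMIs) was not tested. *Slc1a1* held 26, 25 and 4 UMIs and was not called (0.60 ± 0.58, adjusted p = 0.536), and without aged replicate 1 its sign turned (-0.56).

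Neuronal RNA moved with age in the same nuclei. All 8 neuron markers were detected in SGC-like nuclei of each library, at a summed level of 1211 CPM in the adult library against 2042 and 1763 CPM in the aged ones. The SGC-like class was made of a pair of clusters that differed in this. The first held 56.1% of adult but 42.6% and 30.8% of aged SGC-like nuclei, and its neuron markers summed to 1684, 3564 and 3753 CPM. The second held the rest, and its neuron markers summed to 707, 770 and 763 CPM, close to each other across ages.

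Within the second cluster, chosen after these values were seen, *Slc1a2* rose by 2.14 ± 0.16 (adjusted p = 6.23e-38), *Slc6a11* by 1.27 ± 0.22 (adjusted p = 4.92e-07) and *Maob* by 2.34 ± 0.44 (adjusted p = 2.98e-06). *Glul* fell there by 0.47 ± 0.13 (adjusted p = 0.00351) and *Abat* rose by 0.46 ± 0.14 (adjusted p = 0.00909), whereas *Slc1a3* (-0.39, adjusted p = 0.0539) and *Slc38a1* (1.11, adjusted p = 0.0898) were not called at values close to those of the whole class. *Slc38a1* held 4.46, 10.5 and 11 CPM in that cluster. In the first cluster *Glul* had the opposite sign (0.27 ± 0.16, adjusted p = 0.229), *Slc38a1* rose by 1.41 ± 0.31 (adjusted p = 6.09e-05), and *Slc6a11* (0.37 ± 0.26, adjusted p = 0.317) and *Maob* (1.53 ± 0.63, adjusted p = 0.054) were not called. Neuron-like nuclei themselves held 45.1 to 54.2 CPM of *Slc38a1* and 6.57 to 11.1 CPM of *Slc1a2*. Among SGC-like nuclei without any UMI of a neuron marker (459, 21 and 20), the rise of *Slc1a2* was 1.84 ± 0.51 (adjusted p = 0.0155).

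Members were also called with age in endothelial-like, fibroblast-like, myeloid-like, MSC-like and NMSC-like nuclei. In neuron-like nuclei none of 9 members was called by edgeR (1 at an unadjusted p under 0.05, *Slc38a3*), where 8.64% of all genes were called, and none of those given an adjusted p by DESeq2 was called, *Slc38a3* having none. *Slc38a3* gave 36, 7 and 5 UMIs there (log2 -1.78 ± 0.63, adjusted p = 0.0524), and 4 alternatives called it, with the lowest adjusted p (0.0319) among nuclei of more than 2000 genes and the highest of all alternatives (0.472) after subtraction of free RNA. In fibroblast-like nuclei *Slc1a3* rose from 108 CPM to 242 and 202 CPM (log2 0.95 ± 0.25, adjusted p = 0.00613) and *Slc38a1* fell from 272 CPM to 96.2 and 144 CPM (-1.28 ± 0.24, adjusted p = 8.35e-06), where 2.16% of all genes rose and 2.67% fell. The rise was not called with the members kept in clustering (log2 0.78). Neither was called after subtraction of free RNA (log2 0.96 and -1.31) or thinning (log2 0.98 and -1.04), at values close to those of the main fit. *Slc1a3* thus changed in opposite directions in SGC-like and fibroblast-like nuclei, and the difference between these classes was not tested. In NMSC-like nuclei *Slc1a3* went from 38.6 CPM to 20.7 and 22.3 CPM (-1.04 ± 0.39). That fall was not called in the main fit but was called in an alternative. In endothelial-like nuclei the *Slc1a3* difference was -0.94 ± 0.49 and was not called.

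In endothelial-like nuclei, where 0.415% of all genes rose and 1.51% fell, *Maob* rose from 10.1 CPM to 61.6 and 79.6 CPM (log2 2.68 ± 0.56, adjusted p = 0.0008). That rise was not called without the low-count filter (adjusted p = 0.836) or after thinning (0.736). *Slc38a3* fell there from 25 UMIs to 4 and 1 UMIs (-3.01 ± 0.87, called). It passed the low-count filter through the adult library alone, as in neuron-like nuclei, and *Maob* through the aged libraries alone. The filter thus favoured these directions, and the calls are no support for them. *Slc38a3* was not called without the filter (-3.01), with more than 2000 genes (-3.55), with the members kept in clustering (-2.76) or after subtraction of free RNA (-3.03). DESeq2 gave neither gene an adjusted p there. In myeloid-like nuclei, where 5.59% of all genes rose and 6.9% fell, *Slc38a3* went from 23 UMIs (42.2 CPM) to none in either aged library. Against a floor of 3 counts over both aged libraries, and with the 23 adult UMIs taken as exact, it was at least 30.9-fold lower in the aged libraries. Free RNA of the aged libraries also held less *Slc38a3* (0.51 and 0.63 CPM, against 2.29 CPM in the adult library), and its part in this was not tested. *Abat* fell in myeloid-like nuclei from 34.8 CPM to 4.85 and 3.13 CPM (-3.03 ± 0.69, called). Both genes passed the low-count filter there through the adult library alone, where they were high, so their calls are no support for a fall. *Abat* was not called with more than 2000 genes (-3.50), with the members kept in clustering (-2.38) or after subtraction of free RNA (-5.76). The fall of *Slc38a3* missed the threshold after that subtraction (adjusted p = 0.0515), and DESeq2 gave neither gene an adjusted p in myeloid-like nuclei. Neuron markers in the same myeloid-like sums fell from 2111 CPM to 950 and 751 CPM, and their part in these changes was not tested.

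In Schwann cells, *Glul* fell with age in MSC-like nuclei, from 177 CPM to 122 and 112 CPM (-0.70 ± 0.17, adjusted p = 0.00541), where 3.31% of all genes rose and 5.55% fell. It was not called with DESeq2 (adjusted p = 0.228), with more than 2000 genes (0.177) or after thinning (0.0821). *Abat* fell in NMSC-like nuclei, from 104 CPM to 71.7 and 58.1 CPM (-0.84 ± 0.28, adjusted p = 0.0329), where 3.83% rose and 4.55% fell. This fall was not called with DESeq2 (adjusted p = 0.571), without the low-count filter (0.602), with more than 2000 genes (0.426), with the marker gate (0.404) or after thinning (-0.17, adjusted p = 0.923). *Slc1a2* in NMSC-like nuclei had a difference of 1.15 ± 0.40 that missed the threshold in the main fit but was called in an alternative. In B lymphocyte-like nuclei none of 5988 genes was called by edgeR (0%), with 261 at an unadjusted p under 0.05, and DESeq2 called 10. *Slc38a1* had an unadjusted p of 0.0498 there, at a log2 difference of 0.97 ± 0.28. *Glul*, the single member tested in erythroid-like nuclei, was not called (adjusted p = 0.772), where 6.71% of all genes were called.

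Whether the age difference differed between glial classes was tested as an interaction. Against MSC-like nuclei, 4 of 7 members had a higher aged-over-adult log2 fold change in SGC-like nuclei and none a lower one, where 7.08% of all genes were called higher and 3.44% lower. For *Glul* this was a fall in MSC-like nuclei (-0.70) beside an uncalled -0.12 in SGC-like nuclei. *Slc1a1* and *Slc38a3* were not tested for interactions. The interaction was 2.50 ± 0.53 for *Slc1a2* (adjusted p = 0.000125), 2.46 ± 0.78 for *Slc6a11* (adjusted p = 0.0214), 1.73 ± 0.49 for *Slc38a1* (adjusted p = 0.00692) and 0.57 ± 0.19 for *Glul* (adjusted p = 0.0336). MSC-like nuclei held 10, 5 and 1 UMIs of *Slc6a11*. The *Glul* interaction was not called with DESeq2 (adjusted p = 0.419), without the low-count filter (0.174), with more than 2000 genes (0.28, adjusted p = 0.68), with the marker gate (0.0871), with the members kept in clustering (0.0992), after thinning (0.411) or after subtraction of free RNA (0.0668). That of *Slc6a11* was not called without the filter (0.0508), with more than 2000 genes (0.111), with the gate (0.116), after thinning (0.656) or after subtraction of free RNA (0.0566), and DESeq2 gave it no adjusted p. *Slc1a2* was not called with more than 2000 genes (0.0664) or after thinning (0.642), and *Slc38a1* not with the gate (0.211). Against NMSC-like nuclei *Abat* alone was called (1.12 ± 0.24, adjusted p = 0.00022), where 3.77% of all genes were called higher and 2.26% lower, and the interaction of *Slc1a2* was 0.88 ± 0.39 (adjusted p = 0.2). The *Abat* interaction was not called with DESeq2 (adjusted p = 0.196), more than 2000 genes (0.0656), the marker gate (0.863), thinning (0.59, adjusted p = 0.674) or among SGC-like nuclei without a neuron marker UMI (0.259).

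Pathway genes around the members moved in both directions in aged SGC-like nuclei. Of 18 tested among the other 25, 5 rose and 3 fell, where 8.62% of all genes rose and 8.47% fell. Among those that rose was the mitochondrial aspartate aminotransferase *Got2* (0.60 ± 0.16). The vesicular glutamate transporters *Slc17a6* and *Slc17a7*, which load synaptic vesicles of neurons, rose by 0.84 ± 0.20 and 0.84 ± 0.22, beside the neuron marker levels given above. The neutral amino acid carriers *Slc1a4* and *Slc1a5* fell by 0.41 and 0.50, and *Slc3a2* fell by 0.69 (adjusted p = 0.0485, 0.00895 and 0.00177).

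Promoters are shown for the members whose age difference in SGC-like nuclei went together or apart. *Slc1a2* and *Slc6a11* rose and *Slc1a3* fell. Each is the RefSeq window on GRCm38.p6 from 250 bases before to 50 bases after the start in that table (for *Slc1a2* a start inside the GENCODE gene), with GC boxes (GGGCGG or its reverse complement CCGCCC, which do not overlap here) in capitals. A GC box is found in 35.7% of the 32851 windows of the table. Windows for 5 of the 9 members were in that table.
Slc1a2, chr2:102706188-102706487, + strand: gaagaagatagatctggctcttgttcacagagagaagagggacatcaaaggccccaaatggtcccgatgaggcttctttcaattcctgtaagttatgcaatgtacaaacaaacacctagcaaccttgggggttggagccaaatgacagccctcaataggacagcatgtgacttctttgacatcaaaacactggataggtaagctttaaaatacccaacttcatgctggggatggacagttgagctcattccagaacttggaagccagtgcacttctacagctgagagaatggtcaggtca
Slc6a11, chr6:114130991-114131290, + strand: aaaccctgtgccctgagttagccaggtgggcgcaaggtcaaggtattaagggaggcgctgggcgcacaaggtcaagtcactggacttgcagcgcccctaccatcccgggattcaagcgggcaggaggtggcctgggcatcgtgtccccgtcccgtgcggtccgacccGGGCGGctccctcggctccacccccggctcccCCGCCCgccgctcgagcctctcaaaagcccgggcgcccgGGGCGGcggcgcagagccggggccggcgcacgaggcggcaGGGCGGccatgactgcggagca
Slc1a3, chr15:8710758-8711057, - strand: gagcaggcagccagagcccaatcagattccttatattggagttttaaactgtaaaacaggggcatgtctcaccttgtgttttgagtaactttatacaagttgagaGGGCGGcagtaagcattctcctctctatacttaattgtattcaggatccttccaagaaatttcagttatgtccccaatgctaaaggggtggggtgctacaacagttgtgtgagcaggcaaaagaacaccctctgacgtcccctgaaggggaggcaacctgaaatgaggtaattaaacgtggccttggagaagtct

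The *Slc6a11* window held 4 GC boxes and 32 CpG dinucleotides, and the *Slc1a3* window 1 GC box and 3 CpG. The *Slc1a2* window held no GC box and 1 CpG. Across all windows the median was 7 CpG, with 1 and 31 at the 10th and 90th percentiles. The *Slc1a2* window starts 47529 bases inside the GENCODE M21 gene (chr2:102658659-102790784), which has an earlier start whose sequence was not analysed here. In that annotation *Slc6a11* lies at chr6:114131241-114249952, *Slc1a3* at chr15:8634124-8710764 and *Glul* at chr1:153899944-153909723. Genes on the opposite strand overlap *Slc1a1*, *Slc1a2*, *Glul* and *Slc6a11*, and no source used here says that reads were counted by strand. On the same strand *Gm37310* overlaps *Slc1a3* and *Mir8114* overlaps *Glul*.

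Neuron-like subtypes, named from subtype markers, differed in which members they carried. They were neurofilament (NF), non-peptidergic (NP), peptidergic (PEP), SST, TH and TRPM8 neurons, each tested against the mean of the others over the 3 libraries. Neuron-like nuclei of no named subtype (1270, 768 and 381, in the order adult, aged 1 and aged 2) were left out of these tests. Of 8 members tested, NF-like nuclei had 6 higher and 1 lower, where 27.3% of all genes were called higher and 22.6% lower. NP-like nuclei had 1 higher and 2 lower (all genes 18.5% and 15.4%), as did PEP-like nuclei (20.9% and 16%). SST-like nuclei had 1 higher and 1 lower (12.2% and 12.9%), TH-like nuclei 1 lower (21.1% higher and 18.7% lower) and TRPM8-like nuclei 2 higher and 1 lower (12.7% and 8.64%).

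Among the named subtypes *Slc1a1*, the neuronal glutamate carrier, was highest in NF-like and SST-like nuclei. Neuron-like nuclei of no named subtype held 13.4, 16.2 and 18.8 CPM. NF-like nuclei held 21.5, 19.6 and 25.6 CPM, and SST-like nuclei 7.23, 41.5 and 29.8 CPM from 8, 30 and 22 UMIs. NP-like, PEP-like and TH-like nuclei held at most 3.22 CPM. The log2 fold change was 2.53 ± 0.29 in NF-like (adjusted p = 9.16e-07), 2.64 ± 0.44 in SST-like (adjusted p = 0.000139) and -1.97 ± 0.42 in NP-like nuclei (adjusted p = 0.00116).

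*Slc38a1*, which takes up glutamine, was led by NF-like nuclei at 86.3, 127 and 118 CPM, followed by TRPM8-like nuclei at 65.6, 71.0 and 83.9 CPM. These ranges did not overlap. SST-like nuclei held 11.1 to 12.2 CPM, the lowest. Fitted differences (log2) were 1.95 ± 0.11 in NF-like (adjusted p = 7.5e-11), 1.27 ± 0.14 in TRPM8-like (adjusted p = 8.74e-07) and -1.97 ± 0.23 in SST-like nuclei (adjusted p = 2.54e-06). After thinning the last pair of calls was lost (adjusted p = 0.487 and 0.26).

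GABA transaminase *Abat* was highest in NP-like nuclei, at 46.6, 57.4 and 56.0 CPM, and lowest in TH-like nuclei, at 13.2, 14.8 and 11.6 CPM. These differed from the mean by 1.22 ± 0.12 (adjusted p = 2.34e-07) and -1.10 ± 0.17 (adjusted p = 3.21e-05). Over the alternatives the TH-like value ran from -1.37 to -1.02, with an adjusted p of up to 0.219. *Maob* was called in TRPM8-like nuclei (2.21 ± 0.46, adjusted p = 0.00143), where aged replicate 1 held 21.6 CPM against 5.57 and 5.19 CPM in the adult library and aged replicate 2. Without aged replicate 1 it was not called (1.41, adjusted p = 0.15).

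*Glul* was higher in PEP-like (0.60 ± 0.13, adjusted p = 0.00174) and NF-like nuclei (0.44 ± 0.14, adjusted p = 0.0119) and lower in TRPM8-like nuclei (-0.84 ± 0.17, adjusted p = 0.00126). Its levels in all subtypes lay below those of free RNA. The PEP-like difference was not called with the marker gate (0.074, adjusted p = 0.76) or without aged replicate 1 (0.48, adjusted p = 0.0643), and the TRPM8-like one not after thinning (-1.14, adjusted p = 0.0843). With the gate the NF-like difference changed sign (-0.10, adjusted p = 0.601). The glial carriers *Slc1a2* and *Slc6a11* were higher in NF-like nuclei (1.26 ± 0.21 and 1.71 ± 0.34), at 15.7 to 17.5 CPM and 3.43 to 5.01 CPM. *Slc6a11* passed the low-count filter there mainly through the NF-like sums, where it was high, so its call is no support for that direction. SGC markers summed to 382 to 591 CPM in NF-like nuclei and to 82.5 to 524 CPM in the other subtypes, and their part in these differences was not tested. With nuclei assigned by a marker gate the *Slc1a2* difference of NF-like nuclei changed sign (-0.27, adjusted p = 0.548). With the members kept in clustering neither was called (0.19, adjusted p = 0.528, and 0.80, adjusted p = 0.108). *Slc1a3* held 10.1, 10.9 and 9.5 CPM in NF-like nuclei and was called higher there (0.83 ± 0.28, adjusted p = 0.0208), but not without aged replicate 1 (adjusted p = 0.056) or aged replicate 2 (0.193). Neuron-like nuclei of no named subtype, which were not in that test, held more of *Slc1a3*, at 18, 19 and 22 CPM. *Slc38a3* gave at most 14 UMIs in a subtype and library and was not tested.

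**Figure D5:**
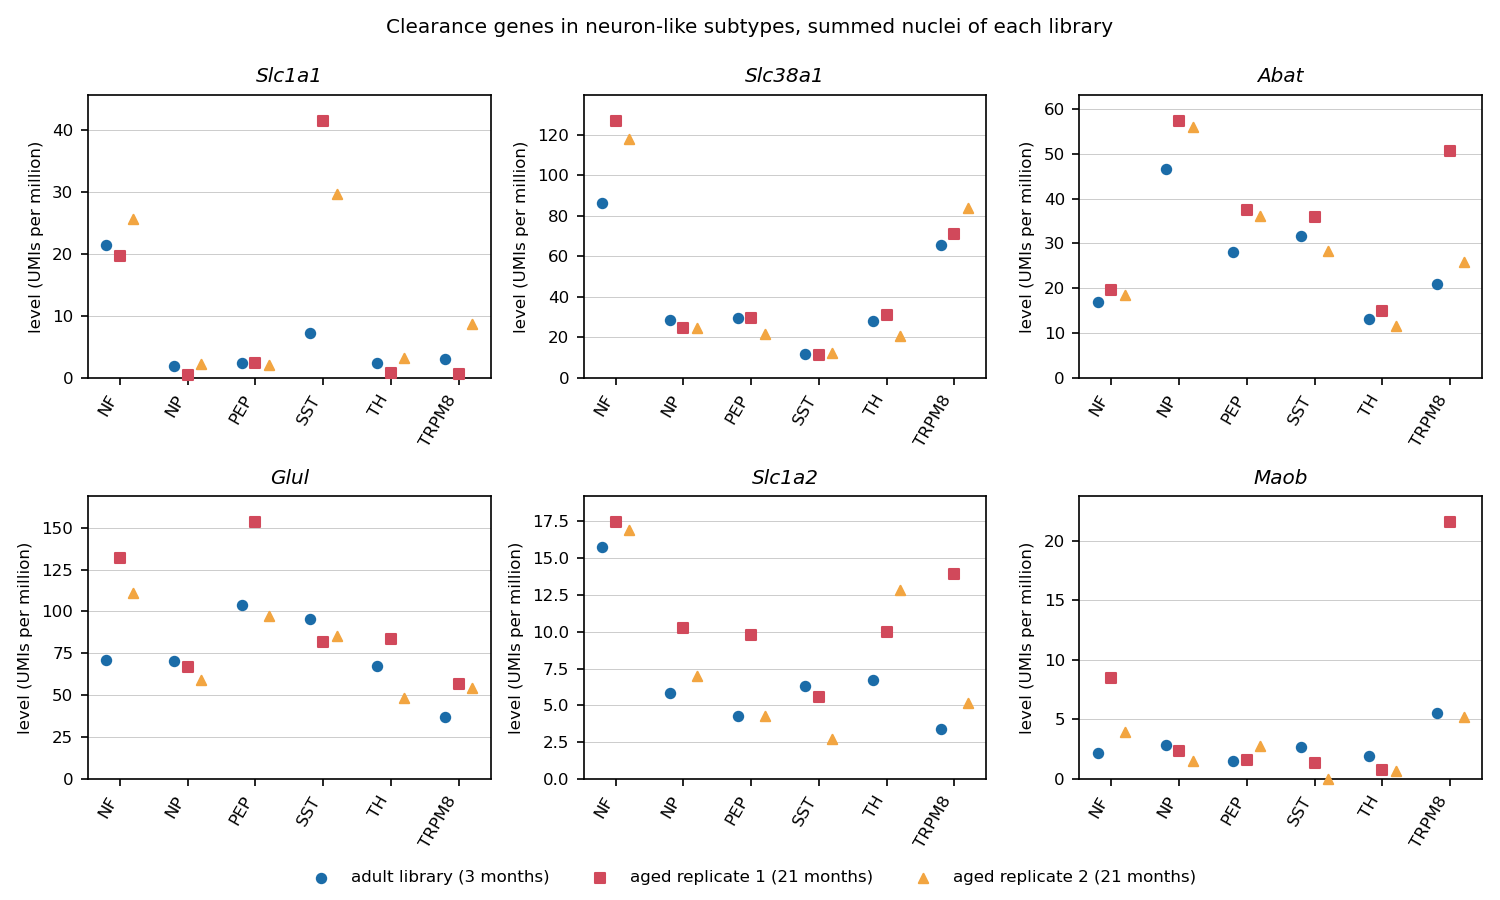
Levels of 6 members (vertical axis, CPM, linear) in 6 neuron-like subtypes (horizontal axis); each point is the summed nuclei of 1 library, with symbols as for the classes. *Slc1a1* stands highest in NF-like and SST-like nuclei, *Slc38a1* in NF-like and TRPM8-like nuclei and *Abat* in NP-like nuclei; libraries lie apart for some values, such as SST-like *Slc1a1* and TRPM8-like *Maob* and *Abat*.

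Finally, the genes whose levels followed each member most closely were listed, by Pearson's r of log2(CPM + 1) over 27 sums (9 classes in 3 libraries) among 17031 genes with at least 200 UMIs. The sums share libraries and depth, and r is a description. *Slc1a2* was closest to *Dcc* (r = 0.88), *9430041J12Rik* (0.88) and *Tafa5* (0.88), and *Slc1a3* to *Asap3* (0.89), *Ptch1* (0.88) and *Jag1* (0.88). *Abat* was closest to *Vstm4* (0.92), *Zfhx4* (0.90) and *Col5a3* (0.89), and *Glul* to *Crispld1* (0.89), *Gm16070* (0.84) and *Gucy1a1* (0.83). *Slc6a11* was closest to *Pex11a* (0.84), *Zfp663* (0.83) and *Sf3a1* (0.81). *Slc38a1* was closest to *Adcy7* (0.89), *Prkcb* (0.85) and *Aff3* (0.84), *Slc1a1* to *Tspan12* (0.90), *Lrrc49* (0.88) and *Gm27002* (0.87), and *Maob* to *9530082P21Rik* (0.87), *Sytl4* (0.86) and *Tspan9* (0.86). *Slc38a3* was below the minimum of UMIs. No member was among the 3 closest genes of another.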

How the data were processed

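The authors isolated nuclei from frozen L3-L5 DRG and captured them with PIP-seq. The deposited files hold unnormalized UMI counts for each barcode, made by the authors with Pipseeker on build mm10 (build from the submitters' processing notes). The annotation behind the counts is not given in the sources used here, and gene positions are those of GENCODE M21, which held 99.6% of the 32227 gene identifiers. Total counts ran from 69045987 to 167664164 UMIs per library.

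The minimum of the study, over 1000 genes in a barcode, was applied. Seurat 5.3.0 (R 4.3.3) was used for SCTransform, RPCA integration of the ages (30 components) and clusters (resolution 0.8), with the 9 members and the 25 other pathway genes left out of the 3000 clustering features, 11 of which were such genes. A cluster was named from at least 3 markers, each over 2-fold (log2 over 1) above the other clusters and detected in 10% or more of its nuclei. Neuron clusters were compared with non-neuronal ones. Clusters of mixed, mitochondrial or too few markers were left out (505 adult nuclei, and 296 and 153 nuclei of aged replicates 1 and 2). No doublet caller was run, and doublets are not shown to have been removed. Rebuilt names may differ from those of the study.

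UMI counts were summed per class and library and tested with edgeR 4.0.16 (TMM, filterByExpr, prior count 0.125, glmQLFTest), with p-values adjusted over all genes by Benjamini-Hochberg. The Wilcoxon test on nuclei of the study was not used. Classes with at least 20 nuclei in each library were compared, with the library as a block; mural-like nuclei were too few. Shares have exact Clopper-Pearson 95% intervals. Alternatives were DESeq2 1.42.0, RLE size factors, no low-count filter, more than 2000 genes, a marker gate per nucleus, clustering with the members kept, thinning, subtraction of free RNA and leaving out each library. In simulated data, the age test on SGC-like sums recovered 0% of 1.5-fold, 44.5% of 2-fold and 99.5% of 4-fold changes. The simulation used the same dispersion for every gene and library and changed only genes of many UMIs, more than *Maob* and *Slc1a1* held. These shares are therefore not the power of the tests reported here.

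The 9 members were described in each comparison where they were tested. Pathway genes were named where they passed the threshold between glia or between ages in SGC-like nuclei, at most 10 by size, and likeness was given for the 3 closest genes. Some genes that this rule names are not reported here. The members, lists and markers were chosen with earlier results of these data known.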

Additional observations from a re-analysis of the deposited data

Results flagged for a closer look

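The age difference of 5 members differed between glial classes by the test of the difference itself, the edgeR interaction. DESeq2 called *Slc1a2* alone, as did the marker gate, and nuclei of more than 2000 genes gave a call for *Slc38a1* alone. Calls over all genes also fell in these settings, as given below. *Slc1a2* (2.50), *Slc6a11* (2.46), *Slc38a1* (1.73) and *Glul* (0.57) had a higher aged-over-adult log2 fold change in SGC-like than in MSC-like nuclei. *Abat* had a higher one (1.12) in SGC-like than in NMSC-like nuclei, where it fell from 104 CPM to 71.7 and 58.1 CPM. Neuron markers of SGC-like nuclei also differed between ages (1211 CPM in the adult library, 2042 and 1763 CPM in the aged ones). In the SGC-like cluster where they stayed level (707, 770 and 763 CPM) the *Slc38a1* interaction was 1.66, close to its value in the whole class, but was not called (adjusted p = 0.11). In that cluster *Slc1a2* (2.54, adjusted p = 0.000274), *Slc6a11* (2.98, adjusted p = 0.00686) and *Abat* (1.28, adjusted p = 7.78e-05) were called, and *Glul* was not (0.21, adjusted p = 0.783). No group held the 4 samples that a test for a sample far from the others needs.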

How the results depend on the processing

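Counts of members called are given over all classes or subtypes of a comparison. The 31 calls between classes ranged from 21 to 36 and the 9 calls between glia from 7 to 13. Leaving out a library gave 25 to 33 calls between classes, 7 to 13 between glia and 13 to 20 between neuron subtypes, against 19 subtype calls in the main fit. The subtype count was 12 with the marker gate and 4 after thinning to 1000 UMIs. The age count of 13 became 4 with DESeq2, 6 without the low-count filter, 4 with more than 2000 genes, 1 after thinning and 8 after subtraction of free RNA. The interaction count of 5 became 1 with DESeq2, 3 without the filter, 1 with more than 2000 genes, 1 with the gate, 3 after subtraction of free RNA and 3 in the SGC-like cluster with fewer neuron markers. It became 0 by edgeR after thinning (2 at an unadjusted p under 0.05) and 0 among SGC-like nuclei without a neuron marker UMI (3 at an unadjusted p under 0.05). Thinning and the last setting left fewer UMIs and genes, and the cause of the changed counts was not tested for any setting. Over all genes, the 2629 age calls in SGC-like nuclei became 860 with DESeq2, 924 with the gate, 470 after thinning, 1640 after subtraction of free RNA (59.9% higher, against 50.4%) and 87 among SGC-like nuclei without a neuron marker UMI, 33.3% of them higher. The interaction calls over all genes fell too. For SGC minus MSC 1404 calls became 250 with DESeq2, 353 with more than 2000 genes, 488 with the gate and 202 after thinning. For SGC minus NMSC 745 calls became 160, 377, 0 and 177 in the same order. The 4744 calls of the SGC-like class against the others ran from 2857 to 6535. Leaving out an aged library gave age values without a test, of 2.06 to 2.10 for *Slc1a2* and 0.76 to 0.86 for *Slc6a11* in SGC-like nuclei.

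Some signs turned, among them those of called differences: neuron-like *Glul* (-0.45), NF-like *Glul* (0.44), *Abat* (-0.74) and *Slc1a2* (1.26), and the *Slc38a1* interaction with MSC (1.73). After thinning these were neuron-like *Glul* (0.20), NF-like *Abat* (0.28) and the SGC minus NMSC interaction of *Glul* (-0.057). With the gate they were NF-like *Glul* (-0.10) and *Slc1a2* (-0.27) and the SGC age difference of *Slc1a1* (-0.34). *Slc1a1* in SGC-like nuclei also turned between classes with the members kept in clustering (-0.25), without neuron marker UMIs (-1.18) and over classes of 50 or more nuclei (-0.16), and with age without aged replicate 1 (-0.56, against 1.07 without aged replicate 2). *Slc38a1* turned in SGC over NMSC with the members kept (-0.66) and without neuron marker UMIs (-0.68), in SGC over MSC in the cluster with fewer neuron markers (-0.64) and without neuron marker UMIs (-1.29), and in the interaction with MSC (-5.70, adjusted p = 0.995). *Maob* turned in SGC over NMSC without aged replicate 2 (-0.23, against 0.60 without the adult library) and in the cluster with more neuron markers (-0.17), where *Glul* with age (0.27) and the *Abat* interaction with MSC (-0.082) turned too. The gate named some nuclei of SGC-like clusters as NMSC-like, and which of the namings is right was not tested. The SGC-like clusters themselves passed 3 and 2 NMSC markers, and the NMSC-like cluster passed 3 SGC markers. Alternatives that use SGC-like clusters, nuclei without neuron markers or larger classes were chosen after seeing the data.

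No paired analysis was possible because the adult and aged groups share only 1 replicate number.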
